A study of Mus musculus with 12 samples.

Results

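Synaptic adhesion genes, 9 in all, were followed in 2 lists of chromatin crotonylation peaks from mouse dorsal hippocampus: the neurexin genes Nrxn2 and Nrxn3, the neurexin-like gene Cntnap2, the neuroligin genes Nlgn1 and Nlgn2, and the leucine-rich repeat genes Lrrtm1, Lrrtm2, Lrrtm3 and Lrrtm4. They were chosen by name, as 9 of 21887 protein-coding genes in the RefSeq table of GRCm38, and every peak in the gene or within 5 kb of its ends was counted. The study as a whole concerns crotonate, lysine crotonylation and spatial memory and holds 12 libraries. The 2 used here came from chromatin immunoprecipitation and sequencing (ChIP-seq) with a pan-Kcr antibody, which recognises crotonylated lysine. The learning library came from C57BL/6J mice trained in spatial object recognition, a test of memory for where objects are placed, and the homecage library from C57BL/6J mice that stayed in the home cage. For these libraries the labels name no drug and give no sex, age, time after training or number of animals. The dorsal hippocampus holds many cell types, and no RNA was analysed here, so the label of the tissue could not be checked against marker genes.

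Each condition had 1 antibody library, so differences between learning and homecage could not be set against replicate spread and no p-value is given. The files list only the positions of called peaks, so the depth and the strength of each peak are unknown. The learning list holds 16002 peaks on chromosomes 1 to 19, X and Y and the homecage list 331236, which is 20.7 times as many. A gene is therefore read against its own list, and the ratio of homecage to learning peaks in a gene against 20.7. Intervals are exact 95% intervals (Poisson for peaks per Mb, Clopper-Pearson for shares). They cover counting error only and treat peaks as independent.

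Neurexins are presynaptic membrane proteins that reach across the synaptic cleft and bind several families of postsynaptic partners. Each neurexin gene has alternative promoters that give proteins of different length. Neuroligins and LRRTM proteins are postsynaptic partners of neurexins. Neuroligin 1 is known mainly from excitatory synapses, neuroligin 2 from inhibitory ones, and LRRTM proteins from excitatory synapses, where they act on glutamate receptors. CASPR2, the product of Cntnap2, is built like a neurexin and is known for gathering potassium channels along axons. Lysine crotonylation on histones is an acyl mark found at promoters and enhancers of active genes.

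The 9 genes together held 22 learning peaks and 775 homecage peaks in 5.97 Mb of gene and flanks. This was 3.68 learning peaks per Mb (95% interval 2.31 to 5.58), against 8.54 over all protein-coding genes counted the same way. In the homecage list it was 129.7 peaks per Mb (121 to 139), against 137 over all protein-coding genes. The ratio of homecage to learning peaks was 35.2 in the 9 genes and 16.0 over all protein-coding genes. Across the genome, learning peaks were sparser in longer genes: 12.5 per Mb in genes under 50 kb, 7.33 in genes of 50 to 500 kb and 4.06 in genes over 500 kb. Homecage peaks varied less with length, at 143, 137 and 123 per Mb. The class over 500 kb includes 11 genes on chromosome X, where both lists have few peaks, whereas all members of that class are autosomal. Its medians were 3.60 learning and 128 homecage peaks per Mb, and 3.77 and 129 in its autosomal genes. Of the 9 genes, 4 (Nrxn3, Cntnap2, Nlgn1 and Lrrtm4) are over 500 kb and supply 5.60 of the 5.97 Mb. These 4 held 2.32 learning peaks per Mb (1.24 to 3.97), below the 4.06 of their length class. The upper bound of the interval is just under that value. Cntnap2 weighs most here, with 2 of the 13 peaks in 2.25 of the 5.60 Mb, and only its own interval (0.108 to 3.21) excludes 4.06. The intervals of Nrxn3 (3.08 per Mb), Lrrtm4 (2.50) and Nlgn1 (4.34) include 4.06, and Nlgn1 lies above it. The shorter members, pooled by length class, went the other way, but not each gene did. Lrrtm3 held 5.82 per Mb, below the value of its class, and Lrrtm2 held no learning peak. Nrxn2 and Lrrtm3, of 50 to 500 kb, held 20.3 per Mb (7.43 to 44.1) against 7.33, with the lower bound just above the class value and 5 of their 6 peaks in Nrxn2. The 3 members under 50 kb held 36.9 per Mb (7.60 to 108) against 12.5, which lies inside the interval. The ratio of homecage to learning peaks was accordingly 55.2 in the members over 500 kb against 30.2 in that class, 7.5 against 18.7 at 50 to 500 kb, and 4 against 11.5 under 50 kb.

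A learning peak was present at 8 of the 9 genes, all but Lrrtm2, against 30.9% of all protein-coding genes. By length, the background was 23.9% of genes under 50 kb, where 2 of 3 members had one (Nlgn2 and Lrrtm1, not Lrrtm2). It was 53.3% of genes of 50 to 500 kb, where Nrxn2 and Lrrtm3 both had one, and 87.7% of genes over 500 kb, where all 4 members did. A homecage peak was present at all 9 genes, and this is near the background of 90.5% (88.6%, 96.8% and 99.6% in the 3 length classes). The presence of a homecage peak thus tells little about these genes, and in the long genes the presence of a learning peak tells little either. The median of the 9 genes was 4.34 learning peaks per Mb, against a median of 0 over all protein-coding genes. That median depends on length: it was 0 in genes under 50 kb, 4.09 in genes of 50 to 500 kb and 3.60 in genes over 500 kb. The median of the 9 genes was 132 homecage peaks per Mb, against 138 over all protein-coding genes.

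**Figure D1:**
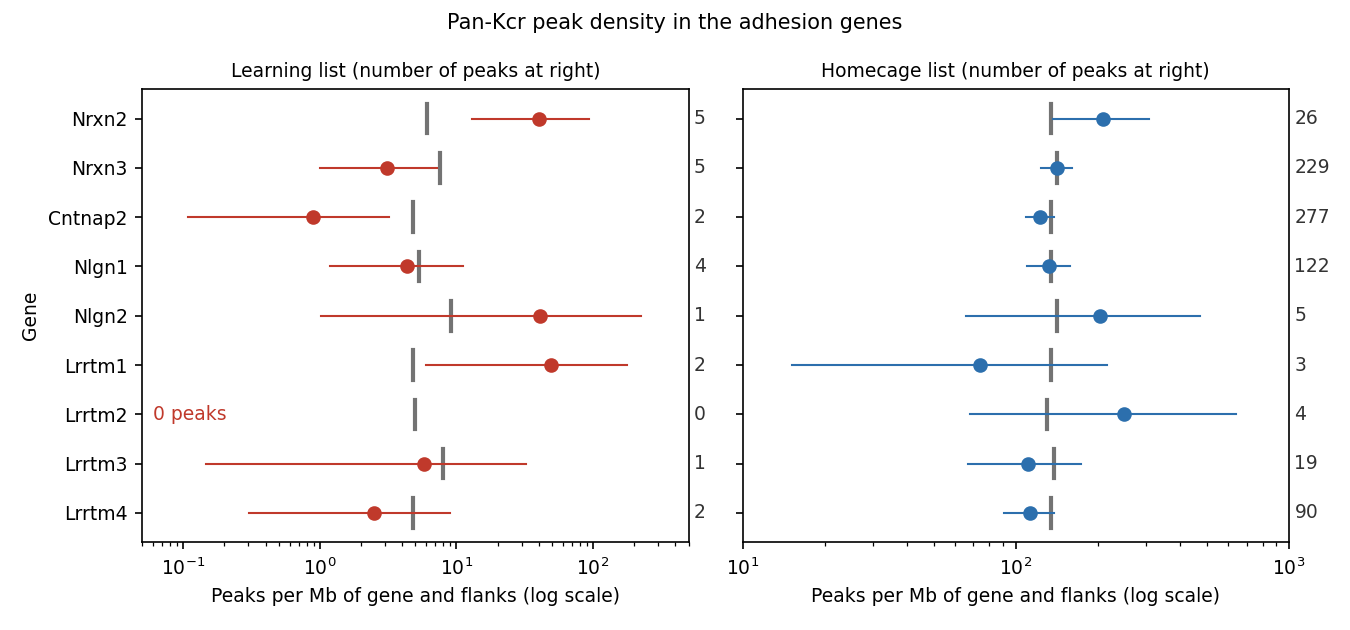
Learning (left) and homecage (right) peaks per Mb of each gene with 5 kb on each side, on log axes. Points are the values, lines the exact 95% Poisson intervals, grey bars the mean of the gene's chromosome, and the number at the right of each panel the number of peaks. In the learning panel Nrxn2 and Lrrtm1 lie above their chromosome bar, and Nrxn3 and Cntnap2 below it, each with the whole interval. The bars take no account of gene length, and learning peaks were sparser in longer genes. In the homecage panel every interval but that of Nrxn2 crosses the bar.

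Ordered by learning peaks per Mb, the genes ran Lrrtm1 (49.1), Nlgn2 (40.5), Nrxn2 (40.2), Lrrtm3 (5.82), Nlgn1 (4.34), Nrxn3 (3.08), Lrrtm4 (2.50), Cntnap2 (0.888) and Lrrtm2 (0). The counts behind these values are 5 or fewer, and the intervals of all neighbours in this order overlap. The interval of Nrxn2 does not reach those of Nlgn1, Nrxn3, Lrrtm4 and Cntnap2, and that of Lrrtm1 does not reach that of Cntnap2. In the homecage list the order was Lrrtm2 (250 per Mb), Nrxn2 (209), Nlgn2 (203), Nrxn3 (141), Nlgn1 (132), Cntnap2 (123), Lrrtm4 (112), Lrrtm3 (111) and Lrrtm1 (73.7), again with overlapping intervals between neighbours. Lrrtm1 was thus highest in one list and lowest in the other, and Lrrtm2 the reverse. Both rest on windows of 40.7 and 16.0 kb with 4 homecage peaks or fewer.

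Nrxn2, on chromosome 19 (6418756 to 6533217, 114 kb), held 5 learning peaks and 26 homecage peaks, a ratio of 5.20. Its 40.2 learning peaks per Mb (95% interval 13.0 to 93.8) were 6.56 times the mean of chromosome 19, and 86 of the 4718 genes of 50 to 500 kb had more. Its 209 homecage peaks per Mb (136 to 306) were 1.56 times the chromosome's mean, and 307 genes of the class had more. The learning peaks in the gene lay toward its upper end, but they are too few to set parts of the gene apart. An equal part with 0 peaks has an interval of 0 to 161 per Mb. One with 2 peaks has an interval of 10.6 to 316, and the 2 intervals overlap. All 4 inside the gene lay in the last 2 of its 5 equal parts, counted from the lower coordinate, at 6498046 to 6498386 (341 bp), 6502553 to 6502743 (191 bp), 6528384 to 6528594 (211 bp) and 6531671 to 6531898 (228 bp). The widest of the 5, 6415459 to 6415938 (480 bp), lay outside the gene, 2818 bp below its lower end, and overlapped the gene model Gm14965. Homecage peaks were also most frequent in the fourth of the 5 parts, with 10 of the 25 in the gene. The widest homecage peak of the 9 genes was here, at 6452843 to 6454818 (1976 bp), and had no learning peak over it. A homecage peak of 1374 bp covered the whole of the learning peak at 6531671.

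Nrxn3, on chromosome 12 (88722701 to 90334935, 1612 kb), held 5 learning peaks, the same number as the far shorter Nrxn2. Its 3.08 learning peaks per Mb (1.00 to 7.19) were 0.404 of the chromosome's mean of 7.62, which lies above the interval. The value of genes over 500 kb, 4.06, lies inside it, and 89 of the 227 genes of that class had fewer per Mb. Its 229 homecage peaks gave 141 per Mb (123 to 161), the same as the mean of chromosome 12. The learning peaks lay at 89246921 to 89247066 (146 bp), 89331160 to 89331305 (146 bp), 89596291 to 89596677 (387 bp), 90025738 to 90025935 (198 bp) and 90079946 to 90080105 (160 bp). The first 2 have the smallest width in the whole learning list, 146 bp. No learning peak lay in the first 524 kb of the gene, and the longest stretch of the gene without a homecage peak was 37.4 kb. With 5 learning peaks and 229 homecage peaks in the gene, the 2 lengths cannot be compared. The learning peaks are also too few to set parts of the gene apart. The first of its 5 equal parts, with 0 learning peaks, has an interval of 0 to 11.4 per Mb, which overlaps those of the other parts. Homecage peaks were spread over the gene, from 118 to 158 per Mb in its 5 equal parts, and the widest, 88926447 to 88927893 (1447 bp), lay in the first part.

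Cntnap2, on chromosome 6 (45060061 to 47301393, 2241 kb), had the lowest learning density of the genes with any learning peak. It held 2 learning peaks, 45765079 to 45765468 (390 bp) and 45986390 to 45986834 (445 bp), and 277 homecage peaks, a ratio of 138.5. Over all genes over 500 kb the ratio was 30.2. The learning density of Cntnap2, 0.888 per Mb (0.108 to 3.21), was 0.186 of the mean of chromosome 6, and the interval excludes that mean, 4.78. That mean takes no account of gene length. The value of genes over 500 kb, 4.06, also lies above the interval, and 29 of the 227 genes of that class had fewer per Mb. The homecage density of 123 per Mb (109 to 138) was 0.913 of the chromosome's mean, which lies inside the interval. The last 1315 kb of the gene held no learning peak, but 2 peaks are too few to set parts of the gene apart. Homecage peaks numbered 42, 51, 58, 57 and 67 in the 5 equal parts from the 5' end, or 93.7 per Mb (67.5 to 127) in the first and 149 (116 to 190) in the last, with overlapping intervals. The widest homecage peak was 45665600 to 45667257 (1658 bp). Of its 277 homecage peaks, 18 also overlapped other annotated gene models, 1 of them the pseudogene Rbpj-ps3, where reads could belong to a related copy elsewhere.

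**Figure D2:**
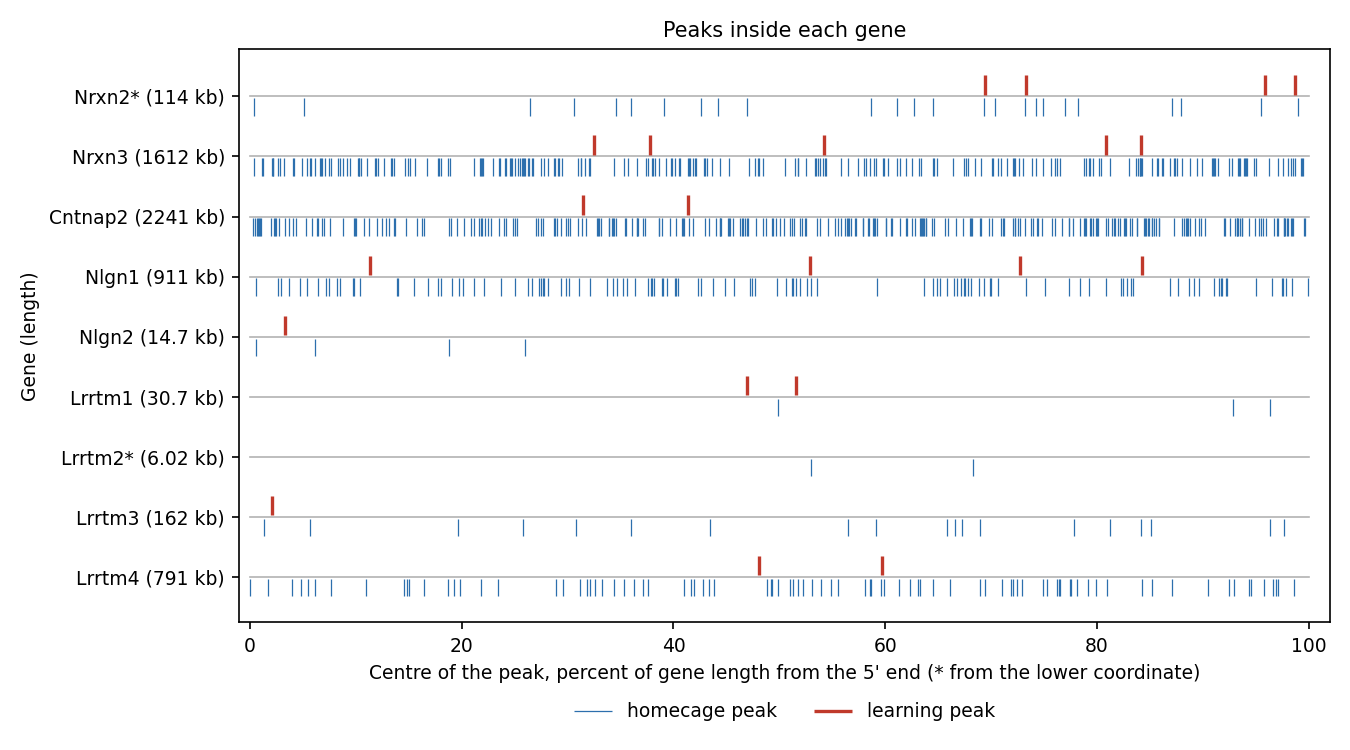
Centres of learning peaks (red, above the line) and homecage peaks (blue, below it) along each gene, in percent of gene length from the 5' end, or from the lower coordinate for the 2 genes marked with an asterisk. Peaks in the flanks are not drawn. Homecage peaks are scattered along the 4 longest genes from end to end and cover 4.47 to 5.21% of their windows. The marks are drawn wider than the peaks. The 13 learning peaks of these 4 genes lie in their interior, 2 of them in Cntnap2.

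Nlgn1, on chromosome 3 (25421808 to 26332866, 911 kb), held 4 learning peaks, 4.34 per Mb (1.18 to 11.1), which is 0.818 of the mean of chromosome 3. They lay at 25564755 to 25565116 (362 bp), 25670206 to 25670394 (189 bp), 25850865 to 25851116 (252 bp) and 26229457 to 26229778 (322 bp), 1 in each of 4 of the 5 equal parts. Its 122 homecage peaks gave 132 per Mb (110 to 158), 0.987 of the chromosome's mean, and the widest was 25726030 to 25727195 (1166 bp). No homecage peak lay over any of the 4, and the nearest were 157 to 8520 bp away.

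Nlgn2, on chromosome 11 (69823123 to 69837784, 14.7 kb), is far shorter than Nlgn1, so the places of their peaks cannot be compared apart from gene length. Of the learning peaks in genes under 50 kb, 59.6% lay within 5 kb of a start site, against 7.67% in genes over 500 kb. Nlgn1 also had a homecage peak within 1 kb of a start site. The 1 learning peak of Nlgn2, 69837020 to 69837589, was the widest of the 22 at 570 bp. It lay in the gene, from 195 to 764 bp downstream of the annotated start site. Of its 5 homecage peaks, 4 lay no farther than 4190 bp downstream of the start site, and 1 of these, 255 bp wide (69837573 to 69837827), covered the start site itself. The learning peak overlapped this peak by 17 bp and the next one (69836710 to 69837066, 357 bp) by 47 bp, so that it filled the gap between them. The widest homecage peak was 69833594 to 69834350 (757 bp), and 1 peak of 415 bp lay outside the gene, 2365 bp past its 3' end.

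Promoter sequences are shown for 3 start sites that differ in their peaks, each from 250 bases before to 50 bases after a RefSeq start (GRCm38.p6), 5' to 3' on the strand of the gene. Capitals mark the bases under a homecage peak. No learning peak covered any of these bases.
Nlgn2, chr11:69837735-69838034, minus strand: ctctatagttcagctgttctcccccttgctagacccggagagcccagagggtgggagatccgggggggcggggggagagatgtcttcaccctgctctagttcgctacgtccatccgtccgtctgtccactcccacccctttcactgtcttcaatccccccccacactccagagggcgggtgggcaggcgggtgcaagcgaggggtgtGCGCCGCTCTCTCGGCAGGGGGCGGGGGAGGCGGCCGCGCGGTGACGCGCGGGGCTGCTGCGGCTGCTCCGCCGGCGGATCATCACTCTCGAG
Lrrtm1, chr6:77242227-77242526, plus strand: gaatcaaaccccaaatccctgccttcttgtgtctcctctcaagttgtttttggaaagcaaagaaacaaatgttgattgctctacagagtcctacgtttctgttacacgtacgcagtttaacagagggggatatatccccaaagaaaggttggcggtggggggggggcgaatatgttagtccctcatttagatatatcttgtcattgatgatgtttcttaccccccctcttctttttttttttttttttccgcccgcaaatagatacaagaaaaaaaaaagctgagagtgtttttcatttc
Cntnap2, chr6:45059811-45060110, plus strand: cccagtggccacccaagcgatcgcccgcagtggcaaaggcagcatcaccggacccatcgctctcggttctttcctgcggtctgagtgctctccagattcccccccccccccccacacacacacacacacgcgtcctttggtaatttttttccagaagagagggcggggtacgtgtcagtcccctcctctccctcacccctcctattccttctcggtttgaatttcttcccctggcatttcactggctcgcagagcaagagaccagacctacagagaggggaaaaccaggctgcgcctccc
The Nlgn2 window holds 26 CG dinucleotides, more than 77.4% of 21263 such windows of protein-coding genes, whose median is 13. The homecage peak covered its last 93 bases. The Lrrtm1 window holds 7 CG dinucleotides and is followed by learning peaks farther downstream. The Cntnap2 window holds 14 and had no peak of either list within 5 kb.

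The promoter table had 12 start sites for 7 of the 9 genes, and no entry for Nrxn2 and Lrrtm2. A tabled start need not be the 5' end of the gene in the gene table. The start of Lrrtm1 lies 13.3 kb inside the gene and the first start of Nrxn3 71.8 kb inside, whereas the first starts of Cntnap2, Nlgn1, Nlgn2, Lrrtm3 and Lrrtm4 lie 0 to 957 bp from that end. Distances to a start below are to the tabled starts only. Of the 12 windows, 1 was covered in part by a homecage peak, that of Nlgn2, and 0 by a learning peak, against 19.9% and 5.21% of all windows of protein-coding genes. Across all windows, a peak was more frequent where there were more CG dinucleotides. Of the windows with 0 to 4, 1.04% had a learning peak and 10.8% a homecage peak, and of those with 25 to 67 the values were 12.2% and 32.2%. The windows of the 7 genes held 2 to 26, and that of Nlgn2 was the only one of the 12 with 25 or more. The cAMP response element TGACGTCA was in 0 of the 12 windows and in 2.23% of all windows, searched on both strands. Its shorter form TGACG, which the longer form contains, was in 1 of the 12, that of Nlgn2, within the bases covered by the homecage peak, and in 23.6% of all windows.

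Within 1 kb of a start site, 1 of the 7 genes had a learning peak (Nlgn2), against 16.4% of 17492 protein-coding genes with a start in the table, and 4 had a homecage peak (Nrxn3, Nlgn1, Nlgn2 and Lrrtm4), against 51.5%. Within 5 kb, 3 had a learning peak (Nlgn2, Lrrtm1 and Lrrtm3), against 20.5%, and all 7 had a homecage peak, against 80.8%. In Nrxn3 a homecage peak lay 656 to 974 bp after the third start site, 1018 kb downstream of the first. Around the first and second starts of Nrxn3 the nearest homecage peaks were 4.80 and 4.66 kb away. In Cntnap2 the nearest homecage peak was 7.11 kb from the first start site and 3.90 kb from the second, and the first learning peak in the gene began 705 kb after the first start. In Lrrtm4 a homecage peak of 176 bp lay between its 2 start sites, and the nearest learning peak in the gene was 380 kb from a start.

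**Figure D3:**
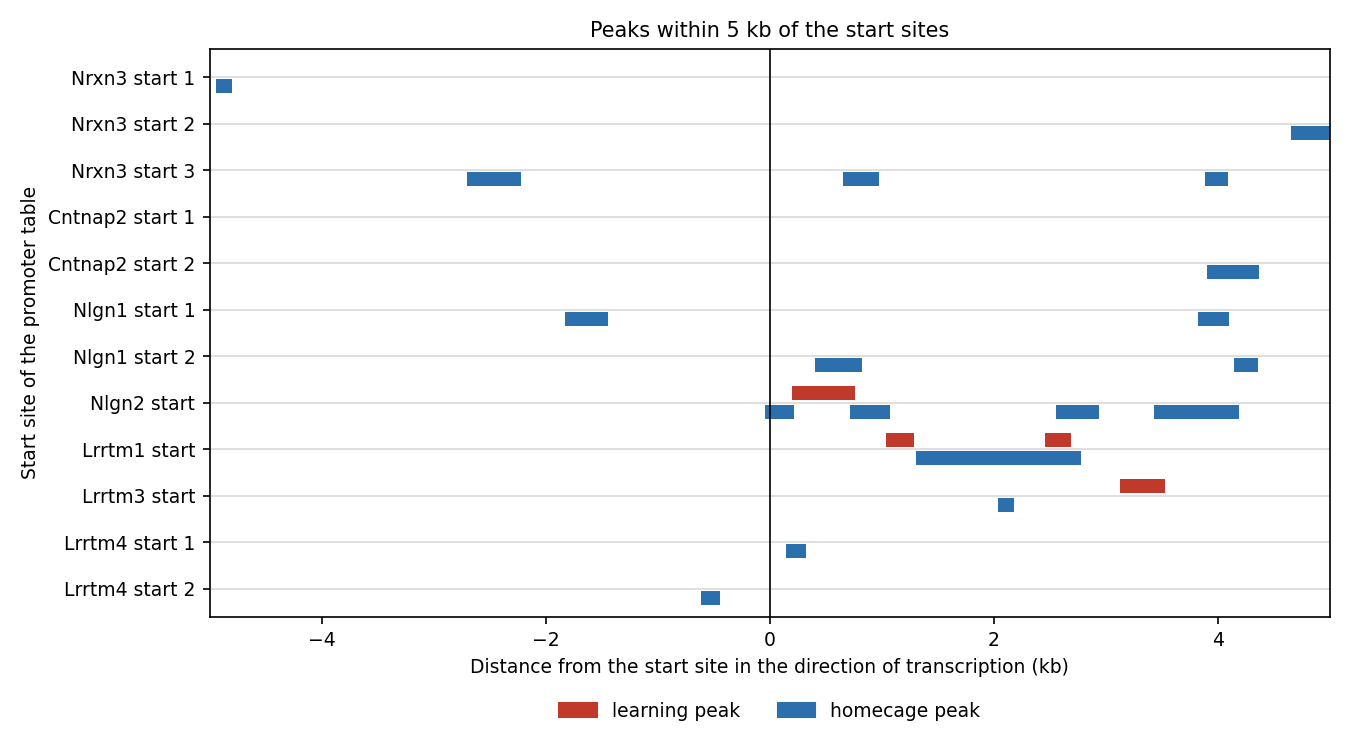
Peaks of both lists within 5 kb of the 12 annotated start sites of 7 genes, with distance in kb in the direction of transcription. Red bars are learning peaks and blue bars homecage peaks, drawn to scale. Learning peaks appear at 3 start sites, those of Nlgn2, Lrrtm1 and Lrrtm3, in each case downstream of the start, and no peak of either list appears at the first start of Cntnap2.

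Lrrtm1, on chromosome 6 (77229210 to 77259915, 30.7 kb), held 2 learning peaks and 3 homecage peaks, a ratio of 1.5. The learning peaks lay at 77243513 to 77243762 (250 bp) and 77244930 to 77245169 (240 bp), which is 1036 to 1285 and 2453 to 2692 bp after the tabled start site and near the middle of the gene. A homecage peak of 1472 bp, 77243786 to 77245257, covered the second learning peak fully and began 23 bp past the end of the first. The 3 peaks thus marked 1 stretch of less than 2 kb downstream of the start. The other homecage peaks lay 15.1 and 16.2 kb after the start, at 77257580 to 77257878 (299 bp) and 77258697 to 77258925 (229 bp).

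Lrrtm2, on chromosome 18 (35209003 to 35215024, 6.02 kb), is the shortest of the 9 genes and had no learning peak. The nearest learning peak to any of its homecage peaks was 18141 bp away. Its 4 homecage peaks lay at 35204587 to 35205013 (427 bp), 35211966 to 35212425 (460 bp), 35213028 to 35213200 (173 bp) and 35215059 to 35215396 (338 bp). Of these, 2 were inside the gene, and the last lay 35 bp past the end with the higher coordinate. The density of 250 homecage peaks per Mb (68.0 to 639) was exceeded by 2144 of the 16942 genes under 50 kb.

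Lrrtm3, on chromosome 10 (63928497 to 64090255, 162 kb), held 1 learning peak, 64086726 to 64087127 (402 bp), from 3128 to 3529 bp after its start site. It did not overlap a homecage peak, and the nearest was 945 bp away. Its 19 homecage peaks gave 111 per Mb (66.6 to 173), 0.804 of the mean of chromosome 10, with the widest at 63978389 to 63979170 (782 bp).

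Lrrtm4, on chromosome 6 (80018858 to 80810162, 791 kb), encodes the LRRTM protein known for its role at synapses of dentate gyrus granule cells. It held 2 learning peaks, 80399300 to 80399474 (175 bp) and 80491122 to 80491507 (386 bp), both in the third of 5 equal parts of the gene, and 90 homecage peaks. The learning density of 2.50 per Mb (0.302 to 9.02) and the homecage density of 112 per Mb (90.3 to 138) were 0.522 and 0.833 of the means of chromosome 6. The widest homecage peak was 80563690 to 80565053 (1364 bp).

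Of the LRRTM genes, 3 lie inside genes for alpha-catenins, which link cadherins to actin, and their peaks cannot be told apart from peaks of the host. All peaks counted for Lrrtm1, Lrrtm2 and Lrrtm3 also lie in Ctnna2, Ctnna1 and Ctnna3. The window of Lrrtm1 is 3.67% of that of Ctnna2 and held 2 of its 6 learning peaks, 49.1 per Mb against 3.75 in the rest of the host. In the homecage list it held 3 of 155, 73.7 per Mb against 142 in the rest. The window of Lrrtm3 held 1 of the 15 learning peaks of Ctnna3, 5.82 per Mb against 9.92 in the rest, and 19 of 205 homecage peaks, 111 per Mb against 132. Ctnna1 had 1 learning peak, which lay outside the Lrrtm2 window, and 4 of its 28 homecage peaks lay in that window. The counts in the Lrrtm windows are too small to set a difference from the host beyond counting error. The learning interval of Lrrtm1, 5.95 to 177 per Mb, lies above 3.75 but takes no account of counting error in the host. That host value rests on 4 peaks, and the 2 learning peaks of Lrrtm1 lie close together.

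A homecage peak overlapped 6 of the 22 learning peaks by at least 1 bp (27.3%, 95% interval 10.7 to 50.2%). This is below, but not beyond counting error of, the 48.1% of the 9291 learning peaks in or near protein-coding genes that were shared. The 6 were 3 in Nrxn2 and 1 each in Nrxn3, Nlgn2 and Lrrtm1. The overlap in Nrxn2 was 289 of 341 bp, 101 of 191 bp and 228 of 228 bp. The learning peaks of Nrxn3 (160 bp) and Lrrtm1 (240 bp) that were shared lay wholly inside homecage peaks of 1005 and 1472 bp. The other 16 lay between 23 and 8520 bp from the nearest homecage peak, with a median of 2633 bp. Sharing, too, went with gene length over the genome. It was 55.7% in genes under 50 kb, 45.3% in genes of 50 to 500 kb and 29.8% in genes over 500 kb. In the 4 longest members 1 of 13 learning peaks was shared (7.69%, 0.195 to 36.0%), and in the other 5 genes 5 of 9 were (55.6%, 21.2 to 86.3%). Both intervals include the value of the corresponding length classes.

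The width of the learning peaks in the 9 genes was 146 to 570 bp with a median of 251 bp, against 306 bp over the whole learning list. The homecage peaks were 147 to 1976 bp wide with a median of 342 bp, against 351 bp over the whole list. Learning peaks covered between 0.0371% (Cntnap2) and 2.31% (Nlgn2) of the windows of the 8 genes that had one, against 0.211% of the genome between the first and last peaks. The values of Nrxn2, Lrrtm1 and Lrrtm3 were 1.17%, 1.20% and 0.234%, and those of Nrxn3, Nlgn1 and Lrrtm4 were 0.0639%, 0.122% and 0.0700%. Homecage peaks covered 4.47% (Lrrtm4) to 10.8% (Nrxn2) of the windows, against 5.01%.

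The 4 long members were set beside the 227 protein-coding genes over 500 kb, themselves included. Nlgn1 had fewer learning peaks per Mb than 90 of them, Nrxn3 than 137, Lrrtm4 than 155 and Cntnap2 than 197, and the median of the class was 3.60. Cntnap2 was thus near the lower end. Of the 29 genes of the class with fewer, 28 had no learning peak, and 11 of these were on chromosome X, where both lists have few peaks. Among the 216 autosomal genes of the class, 18 had fewer than Cntnap2. In the homecage list 50 genes had more per Mb than Nrxn3, 90 more than Nlgn1, 138 more than Cntnap2 and 185 more than Lrrtm4, against a median of 128. None of the 13 learning peaks of the 4 genes lay within 5 kb of a start site (95% interval 0 to 24.7%), against 7.67% of the 782 learning peaks in genes over 500 kb.

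There were 5 genes over 2 Mb long. Of these Ptprd, a presynaptic receptor phosphatase that binds other postsynaptic adhesion proteins, had 4 learning peaks (1.75 per Mb) and 281 homecage peaks (123 per Mb), and so stood closest to Cntnap2. The genes nearest to each long member in both lists together, by distance of log2 peaks per Mb after adding 0.5 peaks, were Pde4d for Nrxn3 (distance 0.04), Ptprt for Nlgn1 (0.04), Sgcz for Lrrtm4 (0.06) and Dock1 for Cntnap2 (0.19). Likeness was measured over 2 libraries only. Dock1 is 503 kb long with 0 learning peaks and 62 homecage peaks, so its closeness to Cntnap2 rests on the added 0.5.

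**Figure D4:**
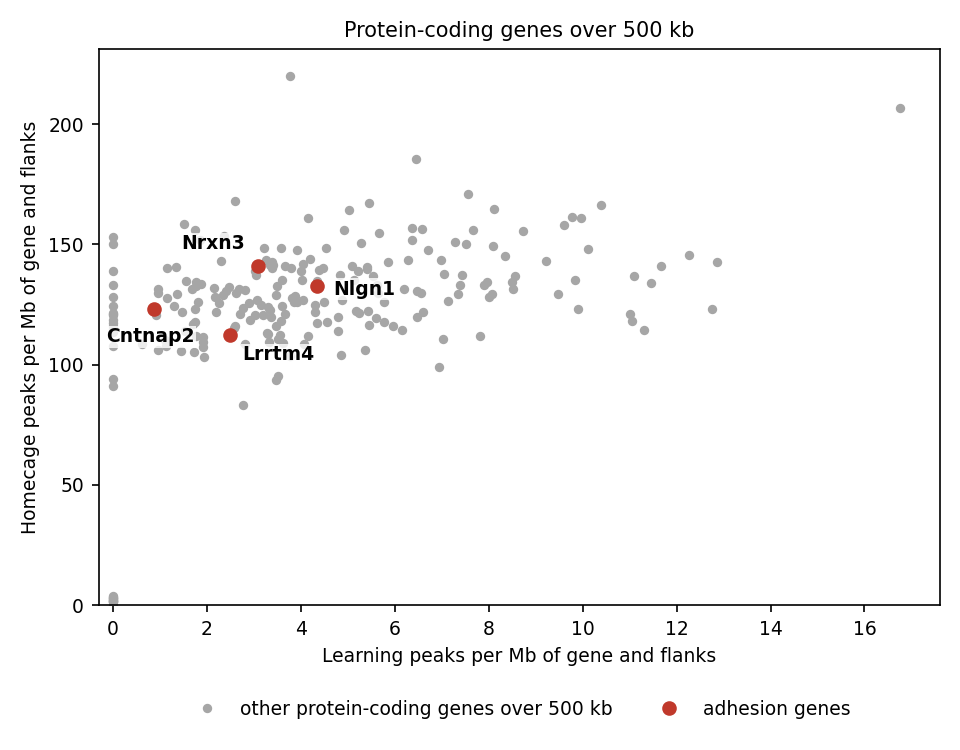
Learning (horizontal axis) and homecage (vertical axis) peaks per Mb of gene and flanks for the 227 protein-coding genes over 500 kb, 1 point for each gene, with the 4 adhesion genes in red. Cntnap2 (0.888 learning peaks per Mb) lies near the left edge of the cloud, and Nrxn3, Nlgn1 and Lrrtm4 lie within it, while all 4 lie between 112 and 141 homecage peaks per Mb. Points near 0 on both axes are genes on chromosome X.

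Other adhesion genes and their partners were taken from 5 lists of 84 genes in all. A learning peak was present at 46 of the 84 (54.8%, against 30.9% of all protein-coding genes) and a homecage peak at 80 (95.2%, against 90.5%). Both shares were higher in longer genes over the genome, and these lists hold many long genes. Of 8 other neurexin, neuroligin and contactin-associated genes, 4 had a learning peak and 7 a homecage peak. Here Cntnap5b and Cntnap5a, relatives of Cntnap2, had the most learning peaks per Mb, 9.61 (7 peaks) and 4.38 (4 peaks), and Cntnap3 the most homecage peaks, 187 per Mb (33 peaks) with no learning peak. The 2 Cntnap5 genes lie on chromosome 1, which has 9.03 learning peaks per Mb, against 4.78 on the chromosome of Cntnap2.

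Of 23 other presynaptic receptors and secreted partners of neurexins, 10 had a learning peak and 21 a homecage peak. These are 43.5% and 91.3%, against 30.9% and 90.5% of all protein-coding genes. The learning background runs from 23.9% in genes under 50 kb to 87.7% in genes over 500 kb, and the lists mix lengths. C1ql3, a secreted synaptic organiser, had 2 learning peaks in and around a gene of 8.98 kb, and Adgrl1, which encodes latrophilin 1, had 3 in and around a gene of 41.9 kb. Cntn2 had 11 homecage peaks, the most per Mb of this list, and no learning peak. Of 32 other postsynaptic adhesion genes, 18 had a learning peak (56.25%) and 31 a homecage peak (96.9%), against the same backgrounds. Lrrc4b and Cadm4, which encode postsynaptic leucine-rich repeat and immunoglobulin-domain adhesion proteins, had 2 learning peaks each, with 9 and 4 homecage peaks. Slitrk1 had the most homecage peaks per Mb of this list, 8 in its 4.25 kb and the 5 kb on each side, beside 1 learning peak.

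Of 18 intracellular partners, which tie neurexins and neuroligins to scaffolds, 11 had a learning peak and 18 a homecage peak. These are 61.1% and 100%, against 30.9% and 90.5% of all protein-coding genes. Lin7b had 2 learning and 2 homecage peaks, and Shank1 had 3 and 12. Dlg4, which encodes the neuroligin-binding scaffold PSD-95, had 1 learning peak and 10 homecage peaks. All 3 alpha-catenin genes had a peak in both lists. The median learning peaks per Mb of the lists were 1.40, 0, 1.90, 4.02 and 6.86 in this order. Over all protein-coding genes the median was 0, and it was 0, 4.09 and 3.60 from the shortest to the longest length class. The median homecage peaks per Mb of the lists were 135, 123, 127, 137 and 140, against 138 over all protein-coding genes. In the 5 lists, 0 genes had a peak in the learning list alone. As 90.5% of all protein-coding genes had a homecage peak, this tells little about the listed genes. Of the listed genes, 9 are on chromosome X, and 0 of these had learning peaks, whereas 6 had homecage peaks.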

How the data were processed

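The deposited peak lists of 2 libraries were used, 1 for each antibody library, assigned to learning and homecage by the library titles. Each deposited list gives chromosome, start, end and name of every peak, in base pairs, and no strength, p-value or read count, so no threshold could be set on peaks. The peak names say that broad peaks were called at p 0.01. The submitters' processing notes name Trimmomatic, BWA, MACS2 and mm10, and the use of the input libraries is not given in the sources used here. Gene positions are those of RefSeq GRCm38.p6, the same assembly as mm10. Start sites and promoter sequences came from a RefSeq table of that build, whose sequences were checked on 1913 overlapping windows of opposite strands, and all had the same bases. Exons were not given, so peaks are placed in or outside genes only.

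Starts were shifted to count from 1. A peak belonged to a gene if it overlapped the gene or 5 kb on either side by 1 bp. Peaks per Mb use the length of gene and flanks. The counting functions were tested on simulated lists with known answers. The 9 genes and all lists were chosen with earlier results of these data known. The genes named were all members, from each partner list up to 2 with the most learning peaks per Mb (at least 2 peaks) and the 1 with the most homecage peaks per Mb, hosts of members, and the gene over 500 kb nearest to each long member. Ptprd and the gene models Gm14965 and Rbpj-ps3 were named after their values were seen. Not analysed here were the 8 single-nucleus and 2 input libraries. Scripts ran under Python 3.11.15 with scipy 1.17.1, numpy 2.4.6, matplotlib 3.10.9 and pandas 2.3.3.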

Additional observations from a re-analysis of the deposited data

How the results depend on the processing

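The results were recomputed for gene bodies alone, for flanks of 10 kb, by peak centres and after merging peaks closer than 1 kb. None of these moved the densities, the ratio or the counts of the 9 genes together by more than 1.5 times, or the shared percentage beyond its interval. Peaks of at least 500 bp moved most values. They left 1 learning peak in the 9 genes, that of Nlgn2, or 0.167 per Mb, so 1 gene with a learning peak, and 28.3 homecage peaks per Mb, a ratio of 169 against 32.8 for the whole lists at that width. The shared percentage was then 0, of 1 peak. With the homecage list shortened to its 16002 widest peaks, the 9 genes held 4.69 homecage peaks per Mb, a ratio of 1.27 against 1 for the whole lists, which are then of equal length. Then 6 of the 9 genes had a homecage peak, and the shared percentage was 13.6%. An overlap of 50% of both peaks lowered the shared percentage to 4.55%. For these settings the shares over all protein-coding genes and over all learning peaks are not given here. The numbers of genes with a peak and the shared percentages at these settings therefore describe the 9 genes alone and cannot be read against a background. For single genes, 72 of 99 recomputed densities stayed within 1.5 times, and 27 did not. The latter came from the 500 bp minimum and the shortened list, except 2 in Nlgn2: 68.2 learning peaks per Mb in the gene body alone, and 122 homecage peaks per Mb after merging. A stricter peak threshold was not run because the lists carry no strengths. No paired analysis was possible because there was a single antibody library per condition, so no replicate could be left out either. Depth is unknown, and at 5 learning peaks or fewer in a gene most differences between genes are within counting error.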
